A study of Mus musculus with 26 samples.

Results

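The gp130 cytokines and their receptors are described here as 9 genes, 5 ligands (*Il6*, *Lif*, *Cntf*, *Clcf1* and *Osm*) and 4 receptor chains (*Il6ra*, *Il6st*, *Lifr* and *Osmr*), taken by name from the 55401 genes counted. All 9 genes were present in both count tables, and all 9 passed the filter on low counts in each fit. *Il6* passed in the naive and crush set only through the crush libraries, since its naive counts were 1 to 9 per library.

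The study measured polyadenylated RNA of the dorsal root ganglia (DRG), which hold the cell bodies of sensory neurons beside the spinal cord, of mice in 26 libraries of 10 groups. The mice labelled cKO carried Ahr f/f with Thy1-CRE(ERT2/EYFP), a tamoxifen-activated Cre recombinase driven from the *Thy1* promoter, which is used to reach neurons, so that other cells of the ganglion keep the floxed alleles. *Ahr* encodes the aryl hydrocarbon receptor, a ligand-activated transcription factor. Control mice carried floxed alleles and no Cre. They were fl/+ in 2 and fl/fl in 1 of the 3 mice in each of the naive and crush groups, fl/fl in all 3 neuron cultures, and f/+ in 1 and fl/fl in 1 of the 2 sham mice. Naive and crush mice of both genotypes, the controls included, received tamoxifen at 28 weeks of age in 5 daily intraperitoneal doses of 100 mg/kg. Their L4 to L6 ganglia were taken 5 weeks later, either without surgery (naive, 3 control and 3 cKO mice) or 1 day after the sciatic nerve had been crushed (3 control and 3 cKO mice). The cultured neurons were labelled as semi-purified and were harvested 24 h after seeding (3 control and 3 cKO cultures). The sham groups held the ipsilateral and the contralateral ganglia of 2 control and 2 cKO mice, 1 day after sham surgery. For the neurons and the sham mice the labels give neither tamoxifen nor an age. Tissue was taken 2 to 4 h after lights on.

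Cytokines of this family signal through a shared receptor chain, gp130, which is encoded by *Il6st*. Each ligand first meets its own partner: IL-6 binds IL6RA and pairs 2 copies of gp130, LIF pairs gp130 with LIFR, CNTF and CLCF1 use the CNTF receptor with gp130 and LIFR, and oncostatin M pairs gp130 with OSMR or LIFR. The paired chains activate JAK kinases and the transcription factor STAT3, and after axon injury this route is known for turning sensory neurons and glia to a regenerative program.

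Libraries of the naive and crush set held 20169388 to 23540375 counts, against 25299938 to 88180611 in the cultured neurons and 39306414 to 58751270 in the sham set, and the precision of low genes follows from these totals. In 2 of 26 libraries the sex-linked transcripts went against the labelled sex, crush control replicate 3 (labelled male) and crush cKO replicate 2 (labelled female), so the counts of genes called after crush, and the values of the members called, are also given without them. The naive and the neuron libraries were all labelled female, the sham libraries male, and each crush group 2 female and 1 male. In no setting were the cKO libraries all below the control libraries in gene-level *Ahr* (17.7 to 22.8 CPM in naive control and 21.5 to 27.0 CPM in naive cKO, 34.0 to 37.3 CPM in crush control and 37.3 to 39.1 CPM in crush cKO libraries). In the neuron and both sham comparisons the ranges of the genotypes overlapped. CPM is a gene's count over its library total on a common scale, adjusted for library composition over all 26 libraries. The labels do not say which part of *Ahr* is floxed, so this level checks no genotype label, and cKO below means the label. *Thy1*, whose promoter the transgene carries, was at 664 to 774 CPM in the naive and crush control libraries and at 1173 to 1407 CPM in those labelled cKO.

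*Il6* was the member with the widest rise after nerve crush, and *Il6*, *Lif* and *Clcf1* were far higher in cultured neurons than in ganglia. At 1 day after crush, 3 of the 9 genes rose in control mice (*Il6*, *Osmr* and *Il6st*) and 2 in cKO mice (*Il6* and *Osmr*), and none fell. In the same fits 21.6% of 21261 genes changed in control mice (12.9% higher and 8.73% lower) and 18.6% in cKO mice (10.7% higher and 7.89% lower), by edgeR's quasi-likelihood test at an adjusted p under 0.05. The median log2 change of the 9 genes was 0.08 in control and 0.21 in cKO mice, beside -0.018 and -0.0046 over all genes tested. Without the 2 libraries that went against their labelled sex, the same genes rose, 3 in control and 2 in cKO mice, among 3982 and 2400 of 21525 genes called.

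Cultured control neurons differed from naive control ganglia in 6 of the 9 genes, 5 higher (*Il6*, *Lif*, *Clcf1*, *Il6st* and *Osmr*) and 1 lower (*Cntf*), where 81.4% of 24101 genes changed (40% higher and 41.3% lower). Against the contralateral ganglia of sham control mice, which are in the same table as the neurons but male, 7 of 9 changed, with *Il6ra* as the further gene, and 70.3% of all genes changed (34.1% higher and 36.2% lower). Counts at such a background say little about these 9 genes, and the sizes are given below instead. The naive ganglia are in the other count table. Both comparisons use the same 3 neuron libraries, so their values are set side by side and not counted as separate support. The tissue, its dissociation and culture, and the sequencing set cannot be told apart in them.

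Between cKO and control, 0 of 9 genes were called by edgeR in each of the 5 settings. Over all genes, 0.00941% were called in naive ganglia (0.0047% higher and 0.0047% lower), 0.00941% after crush (0.0047% higher and 0.0047% lower), 0% in cultured neurons, 0.00451% on the sham ipsilateral side and 0% on the sham contralateral side. At an unadjusted p under 0.05 the 9 genes counted 3 in naive ganglia (all higher in cKO), 1 after crush (lower), 4 in neurons (3 higher and 1 lower), 1 on the ipsilateral side (higher) and 0 on the contralateral side. Over all genes that threshold was met by 1232 of 21261 in naive ganglia, 579 of 21261 after crush, 1863 of 23295 in neurons, and 1682 and 1160 of 22160 on the ipsilateral and contralateral sides. DESeq2 called 1 of the 9 genes in neurons, *Lif*, among 165 genes in all, and 0 of the 9 in the other 4 settings. There it called 3 genes in all in naive ganglia, 2 after crush, 152 on the ipsilateral and 29 on the contralateral side. The test of whether crush acted differently in the 2 genotypes called 0 of 9 genes, with 1 at an unadjusted p under 0.05 (*Osmr*). That test called 0% of all genes, with 627 of 21261 at an unadjusted p under 0.05, and DESeq2 called 0 as well. Between the ipsilateral and contralateral sides after sham surgery DESeq2 called 0 of 9 genes, among 200 genes in all. At an unadjusted p below 0.05 by edgeR there were 2 of the 9, and 1675 of all 22160 genes. At an adjusted p under 0.05 edgeR called 0 of the 9, where 0.00451% of all genes, a single gene, was called. With the mouse as a block 4 genes and still 0 of the 9 were called. These comparisons share groups of libraries with each other.

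**Figure D1:**
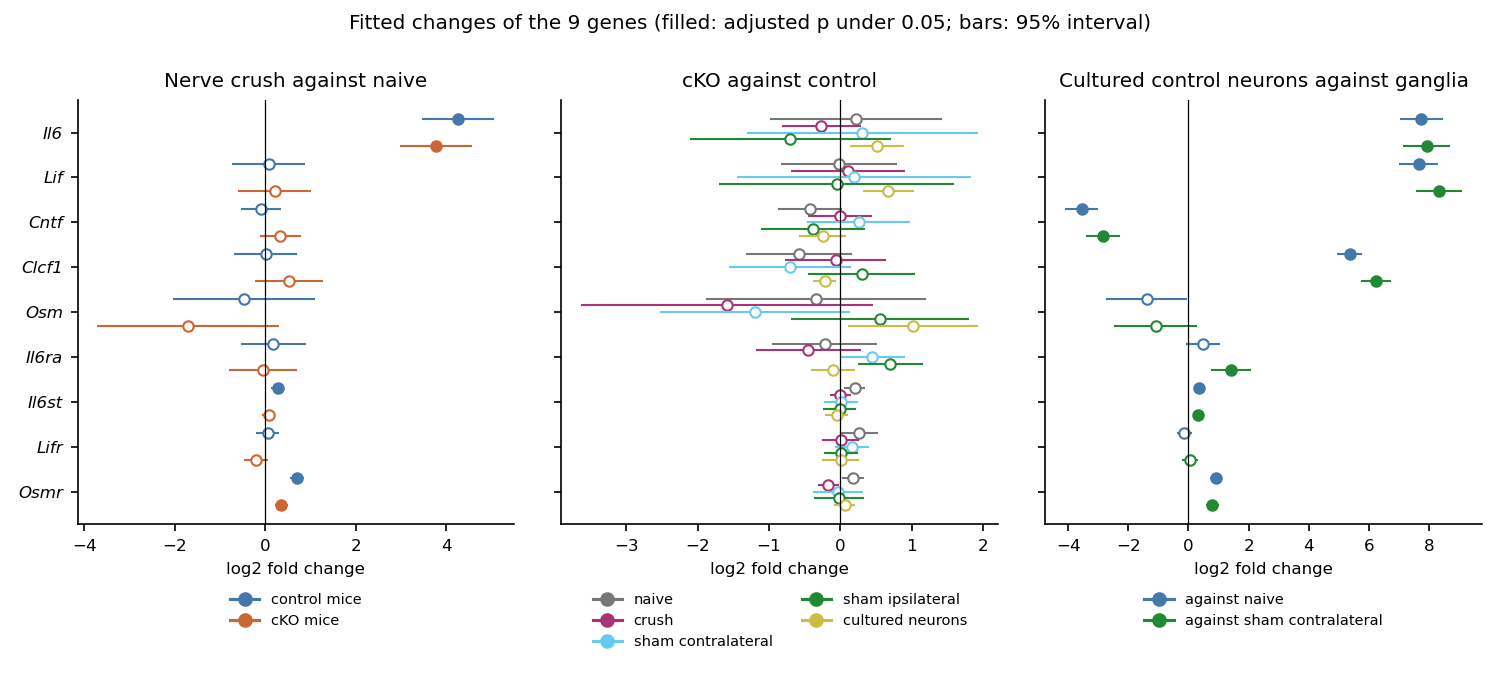
Log2 fold change of each of the 9 genes (points, with 95% intervals as bars) after nerve crush, between genotypes and between cultured control neurons and control ganglia; filled points had an adjusted p under 0.05. *Il6* is far to the right both after crush and in cultured neurons, and no point is filled in the comparison of genotypes.

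The promoters of *Il6*, *Lif*, *Cntf* and *Osmr* are shown because *Il6* and *Osmr* rose after crush in both genotypes, and because *Lif* and *Cntf* are ligands that moved in opposite directions in culture. These 4 were picked after their values were seen. RefSeq promoters (build GRCm38.p6) were found for 7 of the 9 genes. RefSeq starts can differ from the gene starts given below. By the latter, the promoters of *Osmr* and *Lifr* lie inside the gene, and that of *Lif* overlaps it. The 250 bases before the RefSeq start of each gene were searched on both strands for 5 motifs: TGANTCA (AP-1, bound by Fos and Jun), TGACGTCA (the cyclic AMP response element), TTCNNNGAA (STAT), the NF-kB motif and GCGTG (the core of the xenobiotic response element that the aryl hydrocarbon receptor binds). Capitals mark the matches, each sequence runs 5′ to 3′ on the strand of its gene, and the coordinates are chr5:30012864-30013113 (plus strand) for *Il6*, chr11:4257318-4257567 (plus strand) for *Lif*, chr19:12765633-12765882 (minus strand) for *Cntf* and chr15:6874314-6874563 (minus strand) for *Osmr*.
Il6: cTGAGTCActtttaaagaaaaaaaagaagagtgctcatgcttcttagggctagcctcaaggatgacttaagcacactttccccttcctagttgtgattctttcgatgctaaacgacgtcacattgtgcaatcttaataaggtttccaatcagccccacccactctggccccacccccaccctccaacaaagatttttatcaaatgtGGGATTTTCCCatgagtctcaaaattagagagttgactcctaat
Lif: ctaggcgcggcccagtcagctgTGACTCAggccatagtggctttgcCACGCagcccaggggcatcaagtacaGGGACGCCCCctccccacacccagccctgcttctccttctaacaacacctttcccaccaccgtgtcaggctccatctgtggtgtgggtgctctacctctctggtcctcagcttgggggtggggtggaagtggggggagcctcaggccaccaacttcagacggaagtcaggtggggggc
Cntf: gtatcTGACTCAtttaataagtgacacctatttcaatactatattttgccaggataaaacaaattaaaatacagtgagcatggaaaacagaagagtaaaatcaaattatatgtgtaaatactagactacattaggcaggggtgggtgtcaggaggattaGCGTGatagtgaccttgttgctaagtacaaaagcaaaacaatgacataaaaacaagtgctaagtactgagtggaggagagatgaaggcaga
Osmr: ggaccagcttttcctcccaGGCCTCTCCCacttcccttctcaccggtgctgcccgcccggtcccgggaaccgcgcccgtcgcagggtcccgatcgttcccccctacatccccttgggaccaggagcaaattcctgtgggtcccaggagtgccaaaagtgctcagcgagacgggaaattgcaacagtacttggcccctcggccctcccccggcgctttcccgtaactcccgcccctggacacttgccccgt

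AP-1 letters occurred once each upstream of *Il6* (249 to 243 bases before the start), *Lif* (228 to 222) and *Cntf* (245 to 239), and in 6.7279% of 32536 mouse promoters of the same length. The NF-kB motif occurred upstream of *Il6* in 2 overlapping matches, on opposite strands, at 44 to 35 and 43 to 34 bases before the start. *Lif* and *Osmr* held 1 such match each, as did *Il6ra* and both promoters of *Lifr*, and 17.7127% of all promoters held at least 1. The GCGTG core was found upstream of *Lif*, *Cntf* and the first *Lifr* promoter, and in 28.3471% of all promoters. No match to the STAT or the cyclic AMP letters was found in the 8 promoters of these genes (7.0414% and 1.5552% of all promoters), and no match of any kind upstream of *Il6st*. A match is a description of the letters and not a binding site. *Cntf*, which fell in culture, carried the same AP-1 letters as *Il6* and *Lif*, which rose.

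*Il6* (ENSMUSG00000025746.11, chromosome 5, 30013114 to 30019981, plus strand) encodes interleukin-6, a cytokine that neurons and non-neuronal cells make soon after injury. In naive ganglia it was close to the limit of detection, with 9, 6 and 1 counts in the control and 3, 8 and 7 counts in the cKO libraries. After crush the counts were 113, 99 and 80 in control and 76, 74 and 98 in cKO libraries, at similar library totals. Each crush library was thus above each naive library by a wide margin. In CPM the control mean went from 0.226 ± 0.173 (SD, n = 3) to 4.38 ± 0.808, and the cKO mean from 0.260 ± 0.115 to 3.66 ± 0.410. The log2 change was 4.26 (SE 0.369, adjusted p = 1.31e-05 by edgeR) in control and 3.78 (SE 0.367, adjusted p = 3.69e-05) in cKO mice, or 19.2-fold and 13.7-fold. The naive counts limit how firmly these folds can be read, and leaving out single libraries gave log2 changes of 3.74 to 4.87 in control (the latter without naive control 1) and 3.46 to 4.02 in cKO mice. Without the 2 libraries of the unexpected sex they were 4.38 and 3.78. The 2 genotypes differed in this change by -0.49 (SE 0.614, 95% interval -1.83 to 0.85), which did not pass the test.

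*Il6* stayed at under 1 CPM in all sham libraries. The ipsilateral ganglia had 28 and 22 counts in control and 10 and 18 in cKO mice, and the contralateral ganglia 14 and 6 in control and 4 and 14 in cKO mice. Averaged over genotypes the ipsilateral side was at 0.419 and the contralateral side at 0.213 CPM, a log2 difference of 0.91 with a 95% interval of -0.16 to 1.97 (adjusted p = 0.741 by edgeR). That fit did not pair the sides of a mouse. Within each mouse the ipsilateral library had the higher CPM, at 4 to 28 counts, and with the mouse as a block *Il6* was not called either. Both ipsilateral control libraries, at 0.526 and 0.519 CPM, were above each naive library. The sham libraries are in another table than the naive and crush libraries and were not tested against them.

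In cultured neurons *Il6* was among the well measured genes, with 1380, 4690 and 2203 counts in control and 5161, 6252 and 4934 in cKO cultures. That is 55.5, 53.6 and 37.3 CPM in control and 63.2, 83.6 and 66.3 CPM in cKO, and each culture stood above each ganglion library. Control cultures exceeded naive control ganglia by 7.74 on the log2 scale (SE 0.340, adjusted p = 1.35e-14, 214-fold) and sham contralateral ganglia by 7.92 (SE 0.377, 242-fold). These folds rest on few ganglion counts: the first was 8.37 without naive control 1 and 7.22 without naive control 3, and the second 8.59 without contralateral control 1. By limma on log2(FPKM + 0.1), which understates the change of low genes, they were 5.71 and 5.80, and the changes after crush 2.49 in control and 2.21 in cKO mice. Each cKO culture was above each control culture, with means of 71.1 ± 11 and 48.8 ± 10 CPM. The log2 difference of 0.52 (SE 0.165, 95% interval 0.14 to 0.90) had an unadjusted p of 0.0134 and an adjusted p of 0.547 by edgeR, so it did not pass. With DESeq2 and without the shallowest library, control culture 1, it passed (0.63, adjusted p = 0.0309).

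*Lif* (ENSMUSG00000034394.14, chromosome 11, 4257557 to 4272514, plus strand) encodes leukemia inhibitory factor, known in injured nerve as a signal that is carried back to the cell body. It was low in all ganglia, at 10 to 41 counts per library. Naive control libraries had 26, 15 and 30 counts and crush control libraries 31, 10 and 28, so that the groups overlapped. The log2 change after crush was 0.08 (95% interval -0.73 to 0.88) in control and 0.21 (-0.60 to 1.01) in cKO mice. A change of the size of that of *Il6* lies outside both intervals.

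In culture *Lif* reached 218, 231 and 155 CPM in control and 338, 364 and 281 CPM in cKO libraries, from 5420 to 27572 counts. Control cultures were 7.66 (SE 0.312, 202-fold, adjusted p = 4.05e-15 by edgeR) above naive control ganglia and 8.33 (SE 0.370, 321-fold) above sham contralateral ganglia on the log2 scale. By limma on log2(FPKM + 0.1) these were 6.28 and 6.58. All cKO cultures lay above all control cultures, at 328 ± 42.6 against 201 ± 40.4 CPM. The log2 difference was 0.68 (SE 0.157, 95% interval 0.32 to 1.04). Its unadjusted p was 0.00249 and its adjusted p 0.411 by edgeR, and DESeq2 called it (0.67, adjusted p = 0.00794; 0.75 and 0.0025 without control culture 1). Leaving out single cultures in edgeR gave 0.52 to 0.77 and no call.

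*Clcf1* (ENSMUSG00000040663.9, chromosome 19, 4214238 to 4223490, plus strand) encodes cardiotrophin-like cytokine factor 1, a further ligand of the CNTF receptor. Ganglia held 9 to 37 counts per library. Cultured neurons held 35.1, 37.3 and 33.2 CPM in control and 30, 32 and 30.1 CPM in cKO libraries. The excess of control cultures over naive control ganglia was 5.36 (SE 0.202, adjusted p = 1.2e-15 by edgeR, 41.0-fold), and over sham contralateral ganglia 6.23 (SE 0.244, 74.9-fold), or 4.27 and 4.72 by limma on log2(FPKM + 0.1). The cKO cultures were all below the control cultures (log2 difference -0.22, SE 0.0714, adjusted p = 0.554). On the sham ipsilateral side it was at 0.676 CPM and on the contralateral side at 0.363 CPM (log2 difference 0.92, SE 0.244, unadjusted p = 0.00607, adjusted p = 0.467). The gene is uncertain, because 98.7% of its span lies in that of AC109138.7 on the same strand and reads in shared stretches were counted for both genes. AC109138.7 was at 7.93 CPM in naive control ganglia and at 45.7 CPM in control cultures, against 0.843 and 35.2 CPM for *Clcf1*.

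*Cntf* (ENSMUSG00000079415.2, chromosome 19, 12763660 to 12765632, minus strand) encodes ciliary neurotrophic factor, which Schwann cells store. It was the ligand with the most counts in ganglia. Naive control libraries held 31.1, 28.6 and 37.4 CPM and naive cKO libraries 19.9, 33.8 and 18.8 CPM, with overlap through cKO replicate 2 (log2 difference -0.43, SE 0.207, adjusted p = 0.754 by edgeR). Crush libraries held 33.5, 29.1 and 28.7 CPM in control and 33.2, 35.2 and 23.4 CPM in cKO mice. The change after crush was -0.09 (95% interval -0.54 to 0.35) in control and 0.33 (-0.12 to 0.78, adjusted p = 0.319) in cKO mice, and the latter passed without naive cKO replicate 2 (0.63, adjusted p = 0.0254). That library also had the highest summed level of 6 Schwann cell markers, 4975 CPM against 3117 and 3031 CPM in the other naive cKO libraries. In the sham mice the ipsilateral side was at 14.7 and the contralateral side at 21.0 CPM (log2 difference -0.55, SE 0.22, adjusted p = 0.639), which passed where no filter on low counts was used (-0.56, adjusted p = 0.0346). The Schwann cell markers had a median log2 difference of -0.33 between the sides, 0 of 6 being called. Their sums were 3009 and 4039 CPM ipsilaterally and 4339 and 3239 CPM contralaterally in control mice, and 2983 and 3438 CPM against 3830 and 4862 CPM in cKO mice, so that they ordered the libraries within each genotype as *Cntf* did. Their part in these values was not tested.

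Cultured neurons held far less *Cntf*, at 2.49, 2.69 and 3.11 CPM in control and 2.43, 2.45 and 2.27 CPM in cKO libraries. The log2 change in control cultures was -3.55 (SE 0.260, adjusted p = 6.12e-11 by edgeR) against naive control ganglia and -2.84 (SE 0.270, adjusted p = 7.61e-09) against sham contralateral ganglia. Schwann cell markers moved with it, all 6 of 6 lower in the cultures in both comparisons. In these comparisons 41.3% and 36.2% of all genes were lower, and of the 8 neuronal markers 6 and 8 were lower. The summed level of the Schwann cell markers was 3607 to 4719 CPM in naive control, 3239 to 4339 CPM in sham contralateral control and 645 to 738 CPM in control neuron libraries, and none of the 6 was at 0. Their part in the result was not tested, and fewer cells of a type and less RNA per cell cannot be told apart in bulk RNA. The *Cntf* position also lies inside the annotated span of *Zfp91*, which had 431% of the counts of *Cntf* over all libraries.

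*Osm* (ENSMUSG00000058755.3, chromosome 11, 4236420 to 4241026, plus strand) encodes oncostatin M, a product of myeloid cells, and lies 16530 bases from *Lif*. It had 2 to 51 counts per library, and its groups overlapped in most comparisons. Naive control libraries held 38, 2 and 9 counts, naive cKO libraries 15, 17 and 5, crush control libraries 9, 9 and 15, and crush cKO libraries 5, 2 and 4. The library with 38 counts, naive control 1, also had the highest summed level of the 5 neutrophil markers, 630 CPM against 101 and 157 CPM in the other naive control libraries. The crush cKO libraries, with the lowest group mean of *Osm*, had neutrophil sums of 50.6 to 113 CPM, beside 91.8 to 356 CPM in crush control libraries, and the part of neutrophils was not tested. After crush, cKO libraries were all below control libraries (log2 difference -1.58, SE 0.939, unadjusted p = 0.118, adjusted p = 0.99983 by edgeR).

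In cultured neurons *Osm* had 10, 26 and 8 counts in control and 34, 51 and 39 in cKO libraries, or 0.278 ± 0.134 and 0.541 ± 0.134 CPM. The cKO cultures were all higher (log2 difference 1.02, SE 0.399, unadjusted p = 0.0332, adjusted p = 0.598 by edgeR). The neutrophil marker sums were 45.0, 118 and 36.1 CPM in cKO and 12.1, 59.7 and 9.96 CPM in control cultures, with 0 of 4 tested markers called, and their part was not tested. Against naive control ganglia the control cultures were at -1.39 (SE 0.641, adjusted p = 0.0516), and this value rested on naive control 1, without which it was 0.22 (adjusted p = 0.771). Without naive control 2 it was -1.91 (adjusted p = 0.00479), without naive control 3 it was -1.71 (adjusted p = 0.0287) and without neuron control 1 it was -1.58 (adjusted p = 0.0438). No direction can be read for *Osm* in culture.

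**Figure D2:**
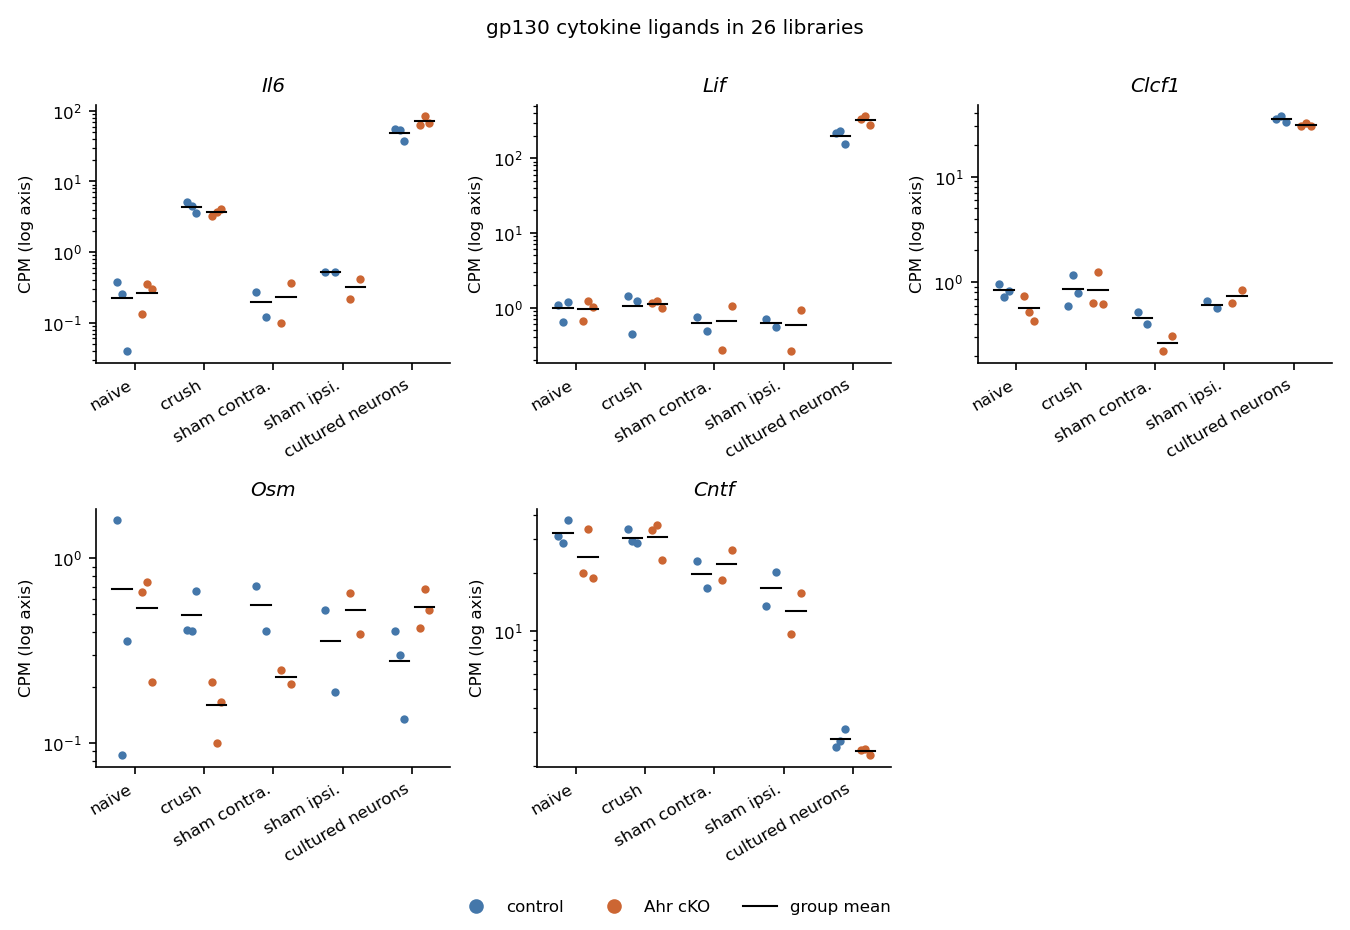
Level of each of the 5 ligands in CPM (log axis) in 26 libraries; points are libraries, blue for control and orange for cKO, and bars are group means. *Il6* rises from naive to crush and again to cultured neurons, *Lif* and *Clcf1* are high in cultures alone, *Cntf* is lowest in cultures, and *Osm* scatters at under 2 CPM.

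*Il6st* (ENSMUSG00000021756.12, chromosome 13, 112464070 to 112510086, plus strand), the shared chain gp130, was at 454 to 688 CPM in all 26 libraries. Naive control libraries held 478, 537 and 521 CPM and crush control libraries 581, 677 and 609 CPM, with no overlap. The log2 change was 0.28 (SE 0.0672, adjusted p = 0.0119 by edgeR), a rise of 1.21-fold, and it was 0.28 (adjusted p = 0.0379) without the 2 libraries of the unexpected sex. Without crush control replicate 2 it was 0.21 and no longer passed (adjusted p = 0.0686). In cKO mice the naive libraries already lay at 604, 576 and 591 CPM and the crush libraries at 585, 672 and 622 CPM, and the change of 0.07 (95% interval -0.07 to 0.22, adjusted p = 0.515) did not pass. The difference between those 2 changes was -0.20 (SE 0.0950, unadjusted p = 0.054, adjusted p = 0.99992). All naive cKO libraries were above all naive control libraries (log2 difference 0.20, SE 0.0672, unadjusted p = 0.0106, adjusted p = 0.754).

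Control cultures held 658, 660 and 688 CPM of *Il6st*. They exceeded naive control ganglia by 0.37 (SE 0.0713, adjusted p = 8.51e-05 by edgeR) and sham contralateral ganglia by 0.32 (SE 0.0802, adjusted p = 0.00119) on the log2 scale. The sham sides differed by -0.08 (95% interval -0.25 to 0.08).

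*Osmr* (ENSMUSG00000022146.12, chromosome 15, 6813577 to 6874969, minus strand) encodes the oncostatin M receptor chain, which also pairs with IL31RA as the receptor for the itch cytokine IL-31. Naive control libraries were close together at 47.0, 47.2 and 47.8 CPM and crush control libraries were at 75.9, 82.8 and 72.7 CPM. Naive cKO libraries were at 57.1, 49.2 and 54.4 CPM and crush cKO libraries at 72.3, 65.0 and 69.9 CPM. In both genotypes each crush library was above each naive library. The log2 change was 0.70 (SE 0.0689, adjusted p = 3.14e-05 by edgeR) in control and 0.36 (SE 0.0687, adjusted p = 0.00355) in cKO mice, or 1.62-fold and 1.28-fold. The values were 0.73 and 0.40 without the 2 libraries of the unexpected sex, and 0.70 and 0.44 with the sex read from transcripts as a covariate. Naive cKO libraries lay above naive control libraries (log2 difference 0.18, unadjusted p = 0.0252, adjusted p = 0.754) and crush cKO libraries below crush control libraries (-0.17, unadjusted p = 0.031, adjusted p = 0.99983). The change after crush was smaller in cKO by 0.34 (a difference of -0.34, SE 0.0972, 95% interval -0.56 to -0.13), with an unadjusted p of 0.00414 and an adjusted p of 0.99992, so it did not pass.

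On the sham ipsilateral side *Osmr* was at 55.1 CPM and on the contralateral side at 49.8 CPM (log2 difference 0.12, 95% interval -0.13 to 0.37). Cultured neurons had the highest levels, 86.0, 96.4 and 90.2 CPM in control and 97.5, 93.1 and 98.6 CPM in cKO libraries. Control cultures exceeded naive control ganglia by 0.92 (SE 0.0923, adjusted p = 9.11e-09 by edgeR) and sham contralateral ganglia by 0.80 (SE 0.103, adjusted p = 7.31e-07) on the log2 scale.

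*Lifr* (ENSMUSG00000054263.12, chromosome 15, 7090614 to 7197489, plus strand), the chain shared by LIF, CNTF and CLCF1, lies 215644 bases from *Osmr*. It was called by edgeR in none of the 11 comparisons, and limma on the deposited FPKM called it in cultures against naive ganglia (-0.25, adjusted p = 0.0483). Its levels were 293 to 505 CPM in all libraries, with 322, 447 and 429 CPM in naive control and 377, 465 and 410 CPM in crush control libraries. The change after crush was 0.06 (95% interval -0.20 to 0.31) in control and -0.21 (-0.46 to 0.05) in cKO mice. Cultures differed from naive control ganglia by -0.14 (-0.39 to 0.10) and from sham contralateral ganglia by 0.06 (-0.22 to 0.33).

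*Il6ra* (ENSMUSG00000027947.11, chromosome 3, 89864059 to 89913196, minus strand), the chain that binds IL-6 itself, was at 3.92 to 14.7 CPM. Naive control libraries held 11.2, 4.76 and 10.8 CPM, so replicates spread more than for the other receptors. Nerve crush changed it by 0.18 (95% interval -0.55 to 0.90) in control and -0.05 (-0.80 to 0.70) in cKO mice. On the sham ipsilateral side cKO libraries (8.02 and 6.13 CPM) were above control libraries (4.46 and 4.44 CPM), a log2 difference of 0.70 (SE 0.195, unadjusted p = 0.00755, adjusted p = 0.528 by edgeR), and contralaterally they were also above (0.45, adjusted p = 0.88). Control cultures held 14.7, 12.3 and 11.3 CPM, 1.43 above sham contralateral ganglia on the log2 scale (SE 0.318, adjusted p = 0.000461) and 0.48 above naive control ganglia (SE 0.275, adjusted p = 0.111), which did not pass.

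**Figure D3:**
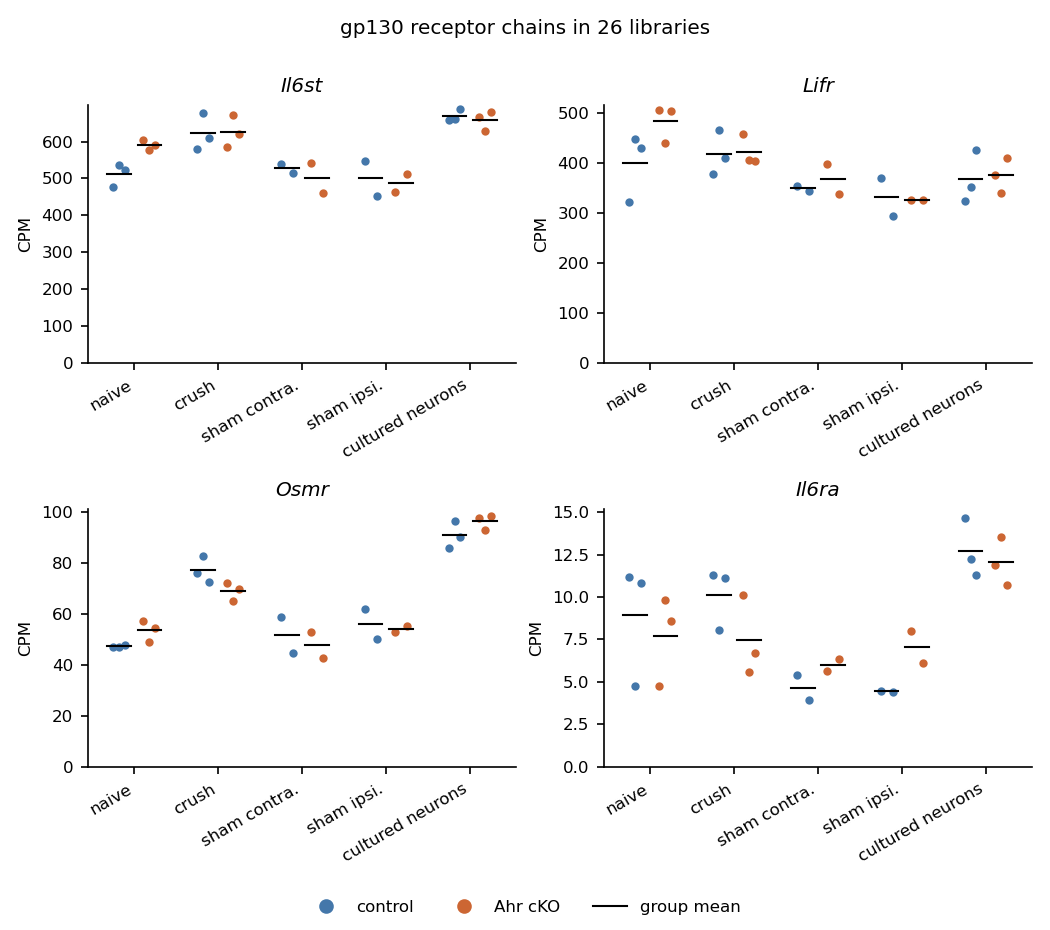
Level of each of the 4 receptor chains in CPM (linear axis from 0) in 26 libraries; points are libraries, blue for control and orange for cKO, and bars are group means. *Osmr* steps up from naive to crush in both genotypes, *Il6st* lies between 454 and 688 CPM and *Lifr* between 293 and 505 CPM.

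Levels can be compared between genes only per length, and their order depends on the length used. Reads in introns may be among the counts, since the deposited FPKM divide by the gene span. Exon-based values would then overstate genes with long introns, such as *Lifr* (span 106876 and exons 10776 bases) beside *Cntf* (1973 and 1073). Neither order below is firm. Per kilobase of exon, naive control ganglia held 46.1 CPM of *Il6st*, 37.1 of *Lifr*, 30.1 of *Cntf*, 3.91 of *Osmr* and 1.03 of *Il6ra*. The other 4 ligands were far lower, and the 0.300 of *Osm* rests on naive control 1. By the deposited FPKM, which divides by the gene span with introns, *Cntf* came first at 17.8, followed by *Il6st* at 12.1 and *Lifr* at 4.05. In control cultures the exon-based order was *Il6st* (60.3 CPM per kilobase), *Lif* (46.3), *Lifr* (34.1), *Il6* (20.1), *Clcf1* (9.24), *Osmr* (7.50), *Cntf* (2.58), *Il6ra* (1.47) and *Osm* (0.122). Across the 10 groups *Il6* ordered from cKO neurons through control neurons and crush to the sham and naive groups. The 2 neuron groups did not overlap with each other or with the crush groups, the 2 crush groups overlapped with each other, the ipsilateral control group stood above the rest, and the remaining groups overlapped with their neighbours. Among 14618 other genes with a mean of at least 1 CPM, those most like *Il6* over the 12 naive and crush libraries were *Herc4*, *Kpna2* and *Sdf2l1* (Pearson r of log2 CPM of 0.985, 0.983 and 0.983). Those most like *Osmr* were *Nptx2*, *Zfp9* and *Adamts8* (0.968, 0.968 and 0.967). These correlations share the step from naive to crush in the same libraries and are a description only.

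A list of 10 further genes of the family was read out, of which 7 were tested in the naive and crush set. After crush 1 rose in each genotype, *Il31ra*, and none fell, where 12.9% of all genes rose in control and 10.7% in cKO mice. Without the 2 libraries of the unexpected sex it was still called in control mice, and 0 of the 7 were called in cKO mice. *Il31ra*, the partner of OSMR, went from 83.9, 69.8 and 72.3 CPM in naive control to 102, 123 and 101 CPM in crush control libraries (0.52, SE 0.0937, adjusted p = 0.00204). In cKO mice it went from 84.4, 82.9 and 70.2 CPM to 103, 103 and 101 CPM (0.36, SE 0.0936, adjusted p = 0.018). Its ligand gene *Il31* had 0 counts in all 12 of these libraries. The median log2 change of the 7 genes was 0.0064 in control and -0.0016 in cKO mice.

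Cultured control neurons differed from naive control ganglia in 7 of 8 tested genes of that list, 2 higher and 5 lower, and from sham contralateral ganglia in 6 of 8, 2 higher and 4 lower, where 81.4% and 70.3% of all genes changed. Among those higher against sham contralateral ganglia, a gene not named here passed the filter on low counts only in fits that held the cultures. *Il11*, a further ligand that signals through gp130, was at 0.643 to 0.845 CPM in naive control libraries and at 95.7, 92.0 and 56.0 CPM in control cultures (log2 change 6.71, SE 0.249, adjusted p = 9.16e-16 by edgeR). *Ctf1*, which encodes the ligand cardiotrophin-1, was at 2.29 CPM in naive control ganglia and at 1.17 CPM in control cultures (-0.99, SE 0.223, adjusted p = 0.000414), and gave -0.11 (adjusted p = 0.711) against sham contralateral ganglia. *Il31ra* was lower in culture by -1.09 against naive and -1.24 against sham contralateral ganglia, and *Il27ra* by -1.09 and -1.10. *Cntfr*, the CNTF receptor, gave -0.20 against naive but -1.16 against sham contralateral ganglia. *Il11ra1*, which overlaps several counted genes and is uncertain, turned direction between them (0.18 and -0.71). Between genotypes 0 of the list were called in each of the 5 settings by edgeR.

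**Figure D4:**
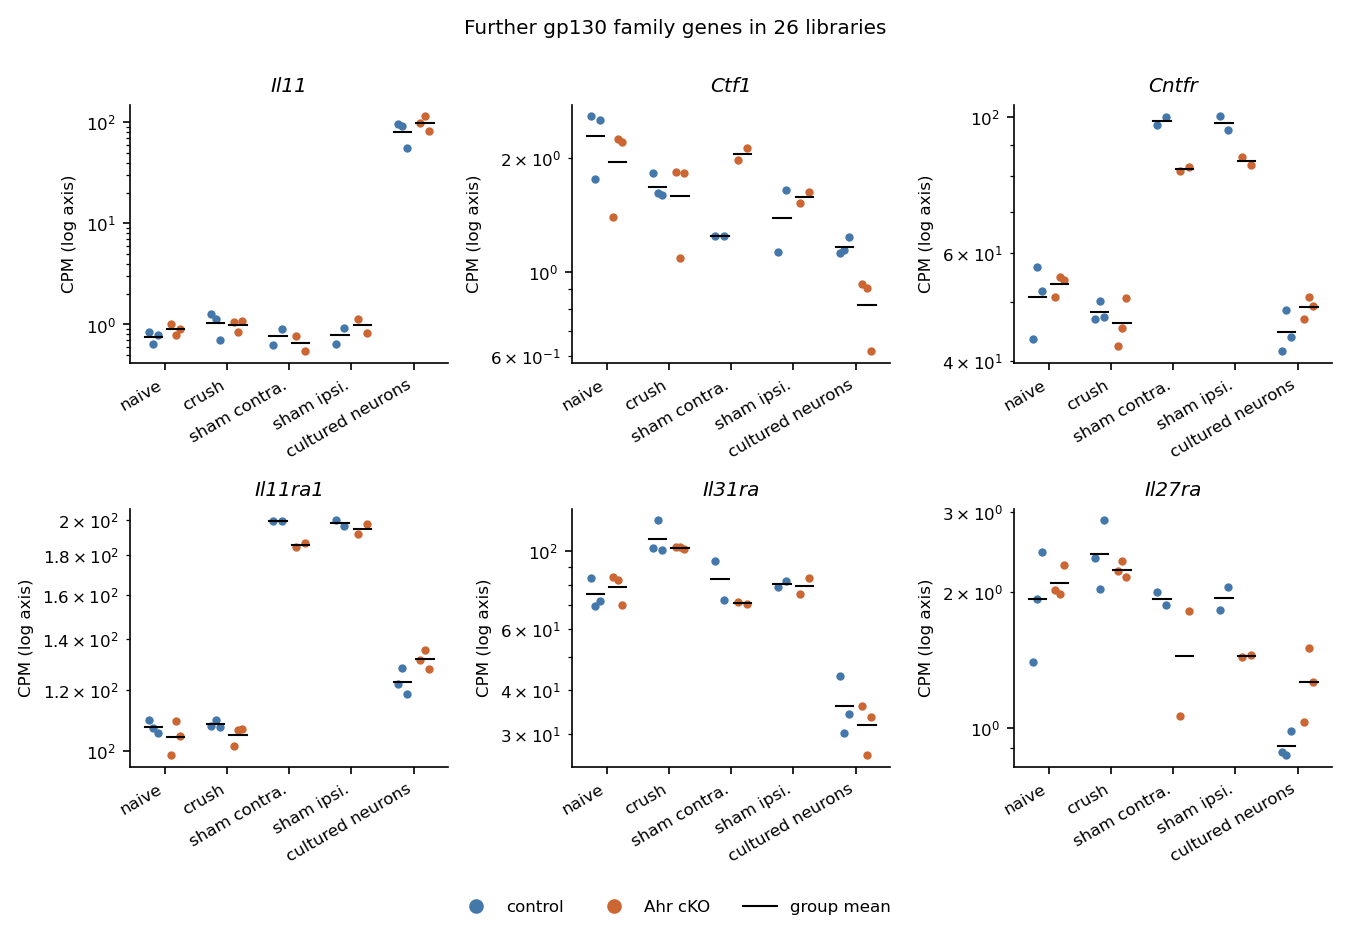
Level of 6 further genes of the family in CPM (log axes that do not start at 0) in 26 libraries; points are libraries, blue for control and orange for cKO, and bars are group means. *Il11* is high in cultured neurons, and *Il31ra* steps up after crush and is lowest in the cultures.

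In the list of 10 signalling genes, 5 rose after crush in both genotypes (*Socs3*, *Cish*, *Stat3*, *Jak2* and *Socs1*) and none fell, where 12.9% and 10.7% of all genes rose. Without the 2 libraries of the unexpected sex the same 5 rose in control mice and 4 in cKO mice, *Socs1* being lost. This list was chosen with earlier results of these data known, and its counts are a description only. *Socs3*, a feedback inhibitor that STAT3 induces, went from 21.4, 11.6 and 13.3 CPM to 76.2, 58.3 and 59.5 CPM in control mice (log2 change 2.06, SE 0.188, adjusted p = 1.9e-05 by edgeR). In cKO mice it went from 11.3, 14 and 12.9 to 57.9, 63.4 and 54.1 CPM (2.18, SE 0.192, adjusted p = 1.77e-05). *Cish*, another feedback inhibitor, rose by 1.44 and 1.32 and *Socs1* by 0.92 and 0.75. The kinase gene *Jak2* rose by 0.45 and 0.57, and *Stat3* itself by 0.58 in control (255 to 383 CPM) and 0.41 in cKO mice (276 to 370 CPM). The median change of the 10 genes was 0.26 in control and 0.22 in cKO mice. After sham surgery *Socs3* was at 33.0 CPM ipsilaterally and 18.7 CPM contralaterally (0.80, SE 0.162, adjusted p = 0.287), which did not pass.

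Of 9 genes known to follow gp130 and STAT3 signalling, 8 were tested in the naive and crush set and all 8 rose in both genotypes (beside 12.9% and 10.7% of all genes), with a median log2 change of 1.71 in control and 1.67 in cKO mice. The same 8 rose without the 2 libraries of the unexpected sex. This list was likewise chosen with earlier results of these data known, so its counts are a description only. *Sprr1a*, a growth-associated gene of regenerating neurons, rose from 0.549, 0.729 and 1.38 CPM to 37.9, 42.2 and 33.5 CPM in control mice (5.39, SE 0.411, adjusted p = 5.27e-06 by edgeR), and by 5.75 in cKO mice. *Gal*, which encodes the neuropeptide galanin, rose by 2.25 and 2.23, *Timp1* by 2.25 and 2.49, the glial filament gene *Gfap* by 2.03 and 2.44, and *Bcl3* by 1.39 and 1.06. Many of these genes also respond to injury by other routes. In control cultures 8 of 9 were higher and *Gfap* was lower than in naive ganglia (-1.51, SE 0.313), and against sham contralateral ganglia 6 were higher and *Gfap* was lower (-0.87). Of all genes 40% and 34.1% were higher in these comparisons. A gene among those higher, not named here, passed the filter on low counts only in fits that held the cultures. Between the sham sides *Gal* was the single gene of the list that rose (18.1 to 46.3 CPM, 1.29, SE 0.0582, adjusted p = 0.000659). None of the signalling genes or of these 9 was called between genotypes by edgeR in the 5 settings.

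Markers of other cell types were read in the same libraries. After crush, where 21.6% of all genes were called in control and 18.6% in cKO mice, 0 of 7 macrophage and 0 of 5 neutrophil markers were called in either genotype, beside the rise of *Il6* and *Osmr*. Of 6 satellite glia markers, 2 rose and 1 fell in control mice and 1 rose in cKO mice. In control mice 1 neuronal, 1 Schwann cell, 1 endothelial and 1 T cell marker fell (*Isl1*, *Pmp2*, *Cldn5* and *Cd3e*), and in cKO mice 2 neuronal markers (*Isl1* and *Rbfox3*). None of the 5 fibroblast markers was called. Among the 4 markers of itch neurons, which include *Il31ra* itself, 3 rose and 1 fell in both genotypes. Cultures labelled as semi-purified neurons had a lower summed level of the 8 neuronal markers (3862 to 4842 CPM) than naive control ganglia (7046 to 8451 CPM), with 6 of the 8 lower and 2, *Uchl1* and *Prph*, higher, where 81.4% of all genes were called. Against sham contralateral ganglia all 8 were lower, *Uchl1* and *Prph* included, where 70.3% of all genes were called. Their 5 endothelial markers were all higher, with a summed level of 1039 to 1442 CPM in control and 964 to 1088 CPM in cKO cultures, against 111 to 146 CPM in naive control ganglia. *Cdh5*, an endothelial cadherin, was at 416 to 578 CPM in control cultures and at 25.2 to 42.3 CPM in naive control ganglia. Against naive ganglia 2 of 7 macrophage markers were higher and 5 lower, with sums of 179 to 186 CPM in control cultures against 122 to 168 CPM. In that comparison 5 of 5 neutrophil markers were lower. Of 5 fibroblast and 6 satellite glia markers 4 each were lower and 1 each higher, where 41.3% of all genes were lower. The part of these cells in the levels of *Il6*, *Lif* and *Clcf1* in culture was not tested.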

How the data were processed

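Polyadenylated RNA of mouse DRG was sequenced from a stranded library kit, per the labels' protocols. The submitters' processing notes name Trim Galore, HISAT2, featureCounts and mm10, and versions are not given in the sources used here. The deposited tables hold whole-number counts per gene made by the authors, with no normalization. They also hold FPKM made by the authors, which divide by the gene span, introns included, within 0.1% for 99.381% of genes. Reads in stretches shared by overlapping genes were counted for each gene. Whether reads in introns were left out of the counts was not settled here. GENCODE M21 gave a symbol for 55141 of 55401 genes (99.53%), and 0 value columns lacked a sample.

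The counts were tested with edgeR 4.0.16 (R 4.3.3): TMM factors, filterByExpr (minimum count 10, minimum total 15), a quasi-likelihood test and Benjamini-Hochberg adjustment over all genes kept (21261 in the naive and crush set, 23295 in neurons, 22160 in sham, 24101 in all libraries). A call is an adjusted p under 0.05. The 3 sets and the fit over all libraries each used factors of their own, whereas CPM levels used 1 set of factors over 26 libraries, so small differences can vary in size between them. Altogether 11 comparisons were made. Alternatives were DESeq2 1.42.0, limma 3.58.1 on log2(FPKM + 0.1), other filters, factors and thresholds, covariates, blocks and left-out libraries. Leaving out the 2 libraries that went against their labelled sex, and DESeq2 without the shallowest culture, were chosen after seeing the data. Fits were tested on simulated data.

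The labels number the naive, crush and culture samples by mouse, 3 mice in each of those groups. Replicate pairs differed beyond sampling noise (chi-square over its degrees of freedom between 3.32 and 39.9). Both sides of a sham mouse come from the same animal and were treated as separate libraries, with the mouse as a block as the alternative; their deviations correlated at -0.302 to 0.290.

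The members, lists and tests were chosen with earlier results of these data known. All 9 members are named, and up to 6, 5 and 5 genes of the 3 lists, being those called in most comparisons and, in ties, with the smallest p after crush in control mice. Promoters come from RefSeq. An item of the list of further family genes is not reported here.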

Additional observations from a re-analysis of the deposited data

Results flagged for a closer look

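Opposite directions between settings, with no overlap of the libraries in either, were found for 3 genes when cKO was set against control. The share of all genes with such a pattern is not given, and groups of so few libraries can separate by chance. The count thus has no background to be set against, and these differences are a description only. No cause was tested, and edgeR called none of these differences within its own setting. DESeq2 without control culture 1 called that of *Il6* in cultures (0.63, adjusted p = 0.0309). The values are log2 ratios of group mean CPM.

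For *Il6* all cKO cultures were above all control cultures (0.54), whereas both cKO libraries were below both control libraries on the sham ipsilateral side (-0.73). The difference between those settings was not tested. For *Osm* the cKO cultures were above the control cultures (0.96), whereas cKO libraries were below control libraries after crush (-1.63) and on the sham contralateral side (-1.29). Those differences were not tested either, and they rest on 2 to 51 counts per library. For *Osmr* cKO libraries were above control libraries in naive ganglia (0.18) and below them after crush (-0.16). That difference was tested as the interaction of genotype and crush, -0.34 with an adjusted p of 0.99992 by edgeR.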

How the results depend on the processing

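Counts of the 9 genes called were 3 after crush in control mice and 2 in cKO mice, and 1 in cKO mice where at least 10 counts were asked in every library, a filter that leaves *Il6* untested. That filter gave 2 in control mice, 4 in place of 6 in neurons against naive ganglia and 5 in place of 7 against sham contralateral ganglia, with 7, 6 and 6 of the 9 genes tested. The shares of all genes called under this filter or with single libraries left out are not given. These member counts therefore show only whether calls of single genes held. Between genotypes in neurons, edgeR called 0, DESeq2 called 1 among 165 genes in all, and DESeq2 without the shallowest culture called 2. The number of all genes called in that last fit is not given, so its 2 calls cannot be set against a background. Between the sham sides 1 was called with no filter on low counts, *Cntf*, and 0 otherwise. Without the 2 libraries that went against their labelled sex, the calls among 7 further family genes were 1 in control mice, as with them, and 0 in place of 1 in cKO mice. Leaving out single libraries gave 2 to 3 members after crush in each genotype and 6 to 7 in neurons against naive ganglia. *Osm* in neurons against naive ganglia turned from -1.39 to 0.22 without naive control 1, within a range of -1.91 to 0.22 over libraries left out, and was called with no filter (-1.37, adjusted p = 0.0462). *Il6ra* there was called without naive control 1 (0.70, adjusted p = 0.0422).

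With the replicate number as a block, *Il6*, *Il6st* and *Osmr* changed by 4.26, 0.28 and 0.70 after crush in control mice and *Il6* and *Osmr* by 3.78 and 0.36 in cKO mice, and the block changed no call of a member. Deviations of same-numbered libraries correlated at -0.559 to 0.527 in the naive and crush set and at 0.0882 to 0.407 in neurons. The numbers thus gave no steady pairing in the naive and crush set. In neurons all 3 pairs were positive, and so few pairs cannot settle whether the numbers pair the cultures. Over all genes, calls after crush in cKO mice were 3962, and 1414 with the sex read from transcripts as a covariate or 2400 without the 2 doubted libraries. Between genotypes DESeq2 called 165 genes in neurons, 152 on the ipsilateral and 29 on the contralateral side, and 200 genes between sides, where edgeR called 0, 1, 0 and 1. Naive *Il6* and all *Osm* counts limit what these libraries can show.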
